A study of Mus musculus with 7 samples.

Results

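Pecam1, Cdh5, Kdr, Flt1, Tek, Tie1, Vwf, Emcn and Eng, genes by which blood vessel endothelium is recognised, and Meox2, a homeobox gene active in endothelium and muscle, were followed in hearts of dystrophic mice with and without IKKβ in cardiomyocytes. In these hearts Pecam1 had a higher mean in the mutants (1.23-fold) and Meox2 a lower one (0.655-fold), while of the 8 others 5 averaged higher and 3 lower. All probe sets that the platform annotation assigns to one of these 10 genes and to no other were taken, which gave 16 of 45037 probe sets and 10 of 18193 genes. The genes were chosen by their measured values on these arrays, because Pecam1 was higher and Meox2 lower in the IKKβ-deleted hearts. The contrast between genotypes is therefore given for these genes as a description, without a test.

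The mutant mice (mdx HRTΔIKKβ, n = 4) carried Myh6-cre and lacked IKKβ in cardiomyocytes, where the Myh6 promoter drives Cre. Their littermates (mdx IKKβf/f, n = 3) carried floxed IKKβ, and the labels list no Cre for them, so Cre itself and the loss of IKKβ cannot be told apart. Every mouse had the mdx mutation, which removes dystrophin, and was 7 months old, and the study used males. RNA came from whole hearts, with 1 heart on each Affymetrix array, so that endothelium was measured together with muscle, fibroblasts and blood cells. Endothelial cells do not use the Myh6 promoter. In such bulk RNA, fewer endothelial cells and less RNA per cell cannot be told apart. Values are log2 RMA values (robust multi-array average, normalized between arrays), and differences are mdx HRTΔIKKβ minus mdx IKKβf/f on the log2 scale with the standard error (SE) of the limma fit.

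Endothelial cells line vessels and the heart chambers. They hold together through adhesion molecules such as PECAM1 and VE-cadherin, survive and sprout through receptors for VEGF, are kept quiet by angiopoietin signals through TIE2, and store von Willebrand factor for clotting. Transcription factors of the ETS family bind a GGAA core in the promoters of many endothelial genes. MEOX2 pairs with TCF15 in endothelial cells of heart muscle, where the pair has been described to drive uptake and transport of fatty acids. In cultured vascular cells it has been described to activate Cdkn1a, and in the embryo it acts in the formation of limb muscle.

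Promoters are shown for the pair of genes whose values ran most closely together over the hearts (Emcn and Eng) and for Meox2. Of the 10 genes, 7 had a promoter in the RefSeq table (GRCm38.p6); Pecam1, Cdh5 and Vwf had no entry. Each line gives the 230 bases from 250 to 21 bases before the start site, 5′ to 3′. In Emcn and Eng, capitals mark the ETS core GGAA on either strand (TTCC on the strand shown), overlapping matches included. In Meox2, capitals mark the match to the κB consensus, the motif bound by NF-κB, which IKKβ activates. The consensus searched for, on either strand, was GGGRNNYYCC (R is A or G, Y is C or T, N is any base). The stretch marked in Meox2 fits it on the strand opposite to that shown.
Emcn (chr3:137340828-137341057, plus strand): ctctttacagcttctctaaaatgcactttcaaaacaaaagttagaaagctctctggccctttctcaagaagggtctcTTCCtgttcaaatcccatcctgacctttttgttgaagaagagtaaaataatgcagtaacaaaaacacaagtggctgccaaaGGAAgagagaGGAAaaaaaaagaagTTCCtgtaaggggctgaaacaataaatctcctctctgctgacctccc
Eng (chr2:32646345-32646574, plus strand): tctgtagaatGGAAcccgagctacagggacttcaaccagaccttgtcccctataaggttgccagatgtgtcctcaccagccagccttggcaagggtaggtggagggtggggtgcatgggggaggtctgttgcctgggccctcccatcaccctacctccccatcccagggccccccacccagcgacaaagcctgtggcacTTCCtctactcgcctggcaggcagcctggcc
Meox2 (chr12:37108290-37108519, plus strand): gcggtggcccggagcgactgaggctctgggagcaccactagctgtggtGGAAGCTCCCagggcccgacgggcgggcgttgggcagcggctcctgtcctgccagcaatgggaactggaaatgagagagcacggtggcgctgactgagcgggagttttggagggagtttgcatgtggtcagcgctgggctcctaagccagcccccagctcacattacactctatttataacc
The ETS core occurred in all 7 promoters, 4 times in Emcn, 2 times in Eng and 3 times in Meox2, but also in 91.9% of all 32851 promoter windows of this length. The longer form GGAAG was found in 6 of the 7 and in 60.3% of all windows, Tek being the one without it. A κB match lay in 3 of the 7, those of Kdr, Flt1 and Meox2, against 6.68% of all windows. The match of Meox2 ran from 202 to 193 bases before the start and overlapped an ETS core. These are matches of letters, and no binding was measured.

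Ikbkb, which encodes IKKβ, was looked at first. Its brightest probe set read 8.44, 8.86, 8.75 and 8.82 in mdx HRTΔIKKβ hearts, against 8.82, 9.03 and 8.86 in mdx IKKβf/f hearts, and the groups overlapped (-0.18 ± 0.11). The 4 other probe sets differed by -0.08 to 0.02. No source used here says whether any of them lies in the deleted part, so the values do not check the genotype. The paper itself reports reduced Ikbkb in mdx HRTΔIKKβ hearts by quantitative PCR. Over all 45037 probe sets, 0 passed limma's test after Benjamini-Hochberg adjustment (smallest adjusted p = 0.336), and 2735 (6.07%) had an unadjusted p under 0.05. The methods' t-test gave 0 and 2086. The arrays were close, with medians from 6.73 to 6.75. Hearts differed in markers of other tissues. Markers of fast skeletal muscle were raised in mdx IKKβf/f replicates 1 and 3 and, less so, in mdx HRTΔIKKβ replicate 2, which also stood highest for airway, lymphocyte and adipocyte markers, and atrial markers were lowest in mdx IKKβf/f replicate 2. All 6 airway and lung markers averaged higher in mdx HRTΔIKKβ hearts (median difference 1.46, and 0.40 without mdx HRTΔIKKβ replicate 2), as did all 4 adipocyte markers (1.09, and 0.63 without that heart). Both tissues are rich in vessels, and their part in the differences of Pecam1 and Vwf was not tested. Ventricular cardiomyocyte genes differed little (1 higher and 9 lower means, median -0.01), with list levels from -0.01 to 0.002 in mdx HRTΔIKKβ hearts and from -0.02 to 0.04 in mdx IKKβf/f hearts (a list level is the mean, over the genes of a list, of log2 values centred on each gene's mean over the 7 hearts). Of these, Mybpc3 had a lower mean without overlap (-0.10 ± 0.05). Mybpc3, Actc1 and Pln averaged 14.37, 14.85 and 14.80, where the array maxima were 15.06 to 15.09. Values so near the top may hide a difference, so they do not settle whether cardiomyocyte content was equal.

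Pecam1 encodes PECAM1 (CD31), an adhesion molecule at endothelial contacts that platelets and some leukocytes also carry. Its probe set read 10.44, 10.55, 10.38 and 10.41 in mdx HRTΔIKKβ hearts, against 10.17, 10.05 and 10.23 in mdx IKKβf/f hearts. Every mutant heart was above every control, by a narrow margin at the nearest pair. The mean was 10.45 ± 0.07 in mdx HRTΔIKKβ hearts (SD, n = 4) and 10.15 ± 0.09 in mdx IKKβf/f hearts (SD, n = 3), and the difference was 0.30 ± 0.07. With 1 heart left out at a time it stayed between 0.25 and 0.34, the ends being set by mdx IKKβf/f replicates 2 and 3. Of the 16 probe sets, 3 did not overlap between groups (Pecam1, 1 of Flt1 and 1 of Meox2), where 5.44% of all probe sets did not. At least 1.5-fold higher was the probe set of Vwf (background 0.79%), and at least 1.5-fold lower were both of Meox2 (background 0.242%). The direction of Pecam1 and Meox2 was the reason for their choice, so nothing is read from these shares.

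**Figure D1:**
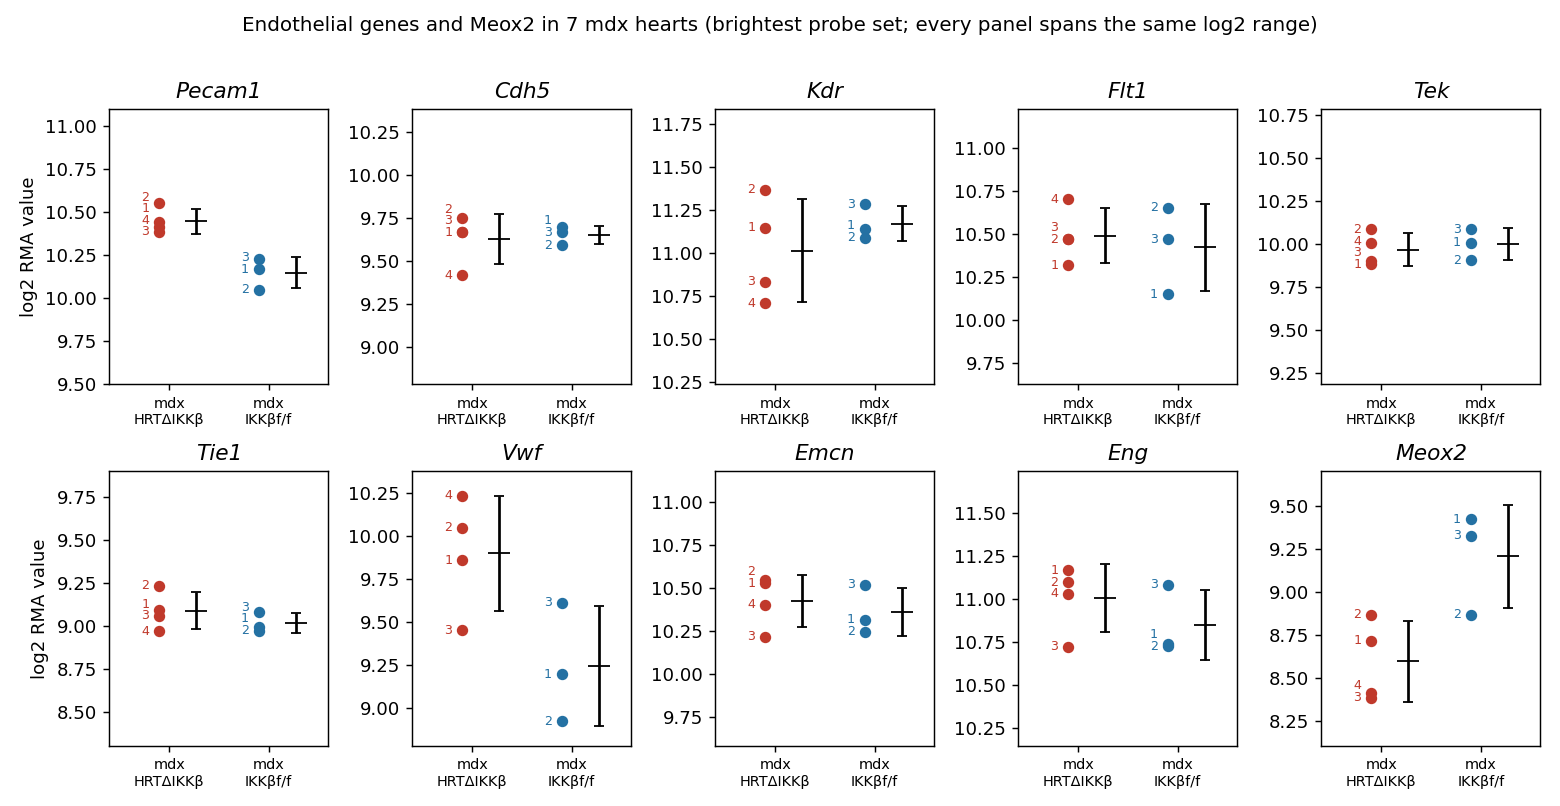
Log2 RMA value (y axis) of the brightest probe set of each gene in 4 mdx HRTΔIKKβ hearts (red, left) and 3 mdx IKKβf/f hearts (blue, right). Digits are replicates and bars are mean ± SD. Pecam1 is the one panel without overlap, with 10.38 as the lowest mutant heart and 10.23 as the highest control, and the brightest Meox2 probe set overlaps only at 8.87.

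Markers of cells that share Pecam1 were set beside it. Of 12 macrophage and leukocyte markers 11 averaged higher in mdx HRTΔIKKβ hearts (median difference 0.31, and 0.21 without mdx HRTΔIKKβ replicate 1), and the list level ran from -0.19 to 0.31 in mdx HRTΔIKKβ hearts, against -0.39 to 0.01 in mdx IKKβf/f hearts. By heart, the macrophage level was 0.31, 0.27, -0.19 and 0.14 in mdx HRTΔIKKβ hearts, against 0.01, -0.39 and -0.15 in mdx IKKβf/f hearts. In the same order Pecam1 was 10.44, 10.55, 10.38 and 10.41, against 10.17, 10.05 and 10.23. The lowest heart for both was mdx IKKβf/f replicate 2, whereas mdx HRTΔIKKβ replicate 3 was low in macrophage level and above every control in Pecam1. All 7 lymphocyte markers averaged higher in mdx HRTΔIKKβ hearts (median 1.08), and their levels, from 0.08 to 1.71 in mdx HRTΔIKKβ hearts and from -1.25 to -0.23 in mdx IKKβf/f hearts, did not overlap, as those of Pecam1 did not. Platelet markers were higher in 7 of 9 genes (median 0.12, between 0.06 without mdx HRTΔIKKβ replicate 2 and 0.20 without mdx IKKβf/f replicate 1), with levels from -0.13 to 0.45 in mdx HRTΔIKKβ hearts and from -0.36 to 0.33 in mdx IKKβf/f hearts. The part of these cells in the difference of Pecam1 was not tested.

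Cdh5 encodes VE-cadherin, the cadherin of endothelial junctions and a gene used by hardly any other cell. Its brighter probe set read 9.67, 9.75, 9.67 and 9.42 in mdx HRTΔIKKβ hearts, against 9.70, 9.59 and 9.67 in mdx IKKβf/f hearts. The control range lay inside that of the mutants, and the difference was -0.03 ± 0.08 (95% interval -0.22 to 0.17). The dimmer probe set gave 0.03 ± 0.08. Leaving out mdx HRTΔIKKβ replicate 4, the lowest heart, turned the sign of the brighter one (0.04). Among 14 other junction and adhesion genes, 7 had a higher and 7 a lower mean, with a median of -0.02 against -0.01 over all 18193 genes (-0.04 with replicate 2 of mdx IKKβf/f left out and 0.002 with replicate 3 of mdx HRTΔIKKβ left out). Esam, an adhesion molecule of tight junctions, had the smallest p of the list (0.23 ± 0.08, limma unadjusted p = 0.0256, adjusted p = 0.796). It read 11.24, 11.33, 11.51 and 11.21 in mdx HRTΔIKKβ hearts, above the 11.05, 11.14 and 11.09 of mdx IKKβf/f hearts.

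Kdr and Flt1 encode the receptors VEGFR2 and VEGFR1. VEGFR2 carries most of the growth signal, and VEGFR1 binds the ligand tightly and also exists in a soluble form that traps it. Kdr read 11.15, 11.37, 10.83 and 10.71 in mdx HRTΔIKKβ hearts, against 11.14, 11.09 and 11.29 in mdx IKKβf/f hearts. The mutant hearts spread widely on both sides of the controls, with replicates 3 and 4 below all of them, and the difference was -0.16 ± 0.16. Without mdx HRTΔIKKβ replicate 2 it was -0.28, and leaving out replicate 4 instead gave -0.06.

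Flt1 was measured by 4 probe sets, all averaging higher in mdx HRTΔIKKβ hearts, by different amounts. The brightest read 10.32, 10.47, 10.47 and 10.70 in mdx HRTΔIKKβ hearts, against 10.15, 10.65 and 10.47 in mdx IKKβf/f hearts. Its groups overlapped, the difference was 0.07 ± 0.13, and its sign turned without mdx IKKβf/f replicate 1 (-0.07) and with mdx HRTΔIKKβ replicate 4 left out (-0.005). The next in brightness differed by 0.22 ± 0.15 and 0.18 ± 0.15. The dimmest read 8.40, 8.59, 8.64 and 8.67 in mdx HRTΔIKKβ hearts, against 8.14, 8.28 and 8.31 in mdx IKKβf/f hearts. This one did not overlap (0.33 ± 0.08). Over the 7 hearts it correlated with the brightest at r = 0.556, whereas the 2 others did so at 0.895 and 0.806. No source used here says which transcripts of Flt1 each probe set detects.

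The ligands and other receptors of the VEGF family showed 2 higher and 6 lower means among 8 genes, with 0 at an unadjusted p under 0.05 (median -0.05, -0.10 with replicate 1 of mdx IKKβf/f left out and 0.01 with its replicate 3 left out). Vegfa, the main ligand of both receptors, differed by -0.07 ± 0.13 and Vegfb, a ligand of VEGFR1, by 0.04 ± 0.07. Pgf, another ligand of VEGFR1, differed by 0.19 ± 0.12. Vegfc, the ligand of lymphatic vessels, had the lowest difference (-0.39 ± 0.20). Its values followed the spread of Kdr among the mutants, with 8.36 and 8.44 in replicates 1 and 2 and 7.79 and 7.89 in replicates 3 and 4, against 8.41, 8.26 and 8.87 in mdx IKKβf/f hearts. The coreceptor Nrp1 (-0.12 ± 0.13), its relative Nrp2 (-0.16 ± 0.10) and the lymphatic receptor Flt4 (-0.03 ± 0.05) overlapped between groups.

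Tek encodes TIE2, the receptor of the angiopoietins, and Tie1 its partner receptor. Tek read 9.88, 10.09, 9.90 and 10.01 in mdx HRTΔIKKβ hearts, against 10.01, 9.91 and 10.09 in mdx IKKβf/f hearts, nearly the same range (-0.03 ± 0.07). Tie1 read 9.10, 9.24, 9.06 and 8.97 in mdx HRTΔIKKβ hearts, against 8.999, 8.98 and 9.08 in mdx IKKβf/f hearts, which lie inside the mutant range (0.07 ± 0.07). The 95% intervals were -0.20 to 0.14 for Tek and -0.09 to 0.24 for Tie1. Of the ligands, Angpt1, which activates TIE2, averaged 9.92 in mdx HRTΔIKKβ hearts and 9.49 in mdx IKKβf/f hearts (0.43 ± 0.26), and its highest value was in mdx HRTΔIKKβ replicate 3 (10.52). Angpt2, the context-dependent antagonist, differed by 0.005 ± 0.06. Ptprb, which encodes the phosphatase that restrains TIE2, read 10.69, 10.82, 11.04 and 10.85 in mdx HRTΔIKKβ hearts, against 11.04, 11.02 and 11.08 in mdx IKKβf/f hearts (-0.20 ± 0.08, limma unadjusted p = 0.046, adjusted p = 0.796).

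Vwf, encoding von Willebrand factor, had the widest difference among the 9 endothelial genes of the set. It read 9.86, 10.05, 9.45 and 10.24 in mdx HRTΔIKKβ hearts, against 9.20, 8.92 and 9.61 in mdx IKKβf/f hearts. The groups overlapped, since mdx HRTΔIKKβ replicate 3 lay below mdx IKKβf/f replicate 3. The mean was 9.90 ± 0.33 in mdx HRTΔIKKβ hearts (SD, n = 4) and 9.24 ± 0.35 in mdx IKKβf/f hearts (SD, n = 3), which differ by 0.65 ± 0.21 (1.57-fold). Leaving out mdx IKKβf/f replicate 2 gave 0.49, and leaving out replicate 3 of that group gave 0.84. Vwf is richer in larger vessels and endocardium than in capillaries, so lists for endocardium, arteries and veins stand beside it. All 4 endocardial markers averaged higher in mdx HRTΔIKKβ hearts, by 0.08 to 0.90 (median 0.41, and 0.58 without probe sets dimmer than 5). The list level was 0.07 to 0.28 in mdx HRTΔIKKβ hearts, against -0.38 to -0.07 in mdx IKKβf/f hearts. Of these markers, Hapln1 was dim (mean 4.26) and overlapped between groups, and Plvap is also counted with the vasoactive genes. Arterial markers were higher in 5 of 6 (median 0.24), with levels from 0.07 to 0.16 in mdx HRTΔIKKβ hearts and from -0.23 to -0.02 in mdx IKKβf/f hearts. That list does not hold Efnb2 and Dll4, arterial genes counted with Notch signalling, which had lower means in mdx HRTΔIKKβ hearts (-0.27 ± 0.08 and -0.30 ± 0.13). Venous and capillary-venous levels overlapped, from -0.26 to 0.19 in mdx HRTΔIKKβ hearts and from -0.11 to 0.26 in mdx IKKβf/f hearts, with a lower mean in mdx HRTΔIKKβ hearts (-0.06) than in mdx IKKβf/f hearts (0.09). No list gene passed limma's adjusted threshold.

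Plvap, the protein of the diaphragms that span endothelial pores, and Npr3, the clearance receptor for natriuretic peptides and a marker of endocardium, led the endocardial list. Plvap read 8.81, 9.02, 8.56 and 8.68 in mdx HRTΔIKKβ hearts, against 8.07, 7.44 and 8.10 in mdx IKKβf/f hearts (0.90 ± 0.18, limma unadjusted p = 0.00115, adjusted p = 0.677). Npr3 read 9.55, 9.75, 9.82 and 10.22 in mdx HRTΔIKKβ hearts, against 9.12, 9.18 and 9.45 in mdx IKKβf/f hearts (0.58 ± 0.16, limma unadjusted p = 0.00661, adjusted p = 0.796). Neither overlapped. Of all genes by their brightest probe set, 5.67% did not overlap. Atrial markers, given because atria also carry endocardium, were higher in 8 of 8 (median 0.94, and 0.32 without mdx IKKβf/f replicate 2), and their level was -0.28 to 1.03 in mdx HRTΔIKKβ hearts, against -1.68 to 0.39 in mdx IKKβf/f hearts. By heart, the atrial level was -0.28, 0.34, 0.50 and 1.03 in mdx HRTΔIKKβ hearts, against 0.39, -1.68 and -0.29 in mdx IKKβf/f hearts. The lowest atrial heart, mdx IKKβf/f replicate 2, was also lowest for Vwf and Plvap. Other hearts did not keep one order, as mdx IKKβf/f replicate 1 was above mdx HRTΔIKKβ replicates 1 and 2 in atrial level and below them in Vwf. In mdx HRTΔIKKβ replicate 3 the atrial level was 0.50, and Vwf was the lowest of the mutants. The part of atrial tissue in the difference of Vwf was not tested.

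**Figure D2:**
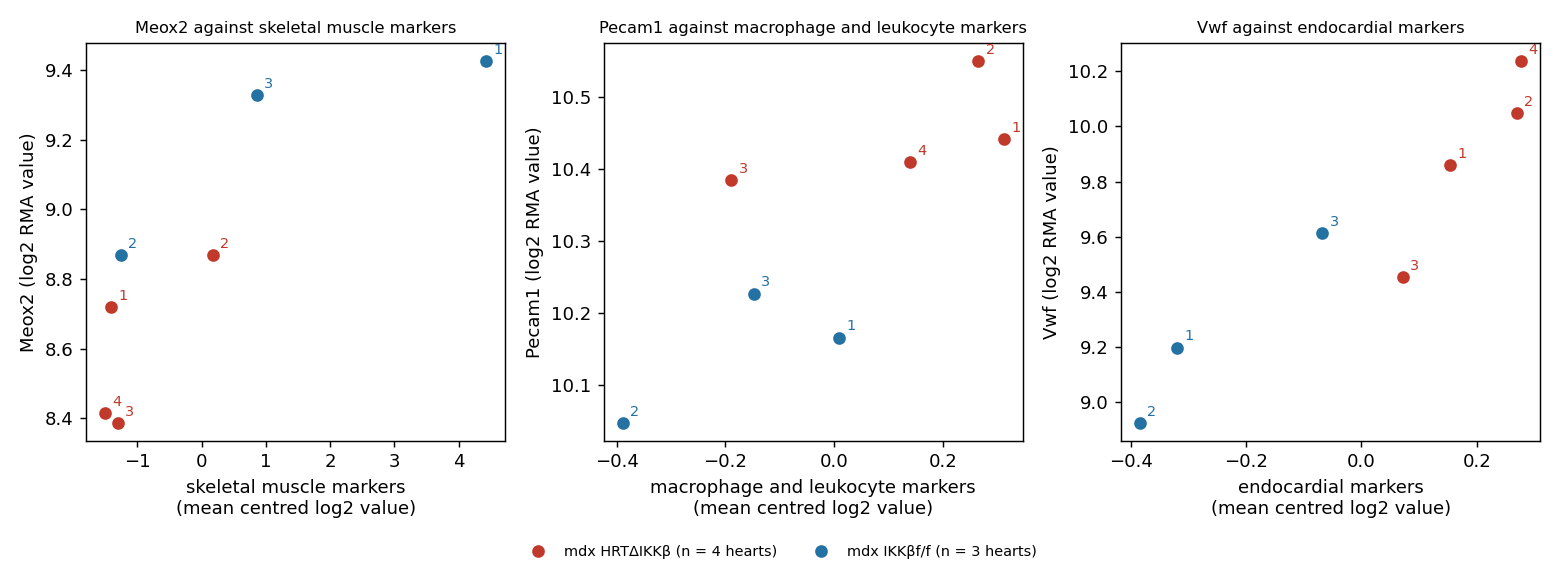
Log2 RMA values (y axes) of Meox2, Pecam1 and Vwf against the list level of skeletal muscle, macrophage and endocardial markers (x axes) in the same hearts, with mdx HRTΔIKKβ in red, mdx IKKβf/f in blue and digits for replicates. Meox2 is highest (9.43) in the heart with the highest skeletal muscle level (4.43). Pecam1 is lowest (10.05) in mdx IKKβf/f replicate 2, which has the lowest macrophage level (-0.39). It is highest (10.55) in mdx HRTΔIKKβ replicate 2 (level 0.27), and is 10.38 in mdx HRTΔIKKβ replicate 3 (level -0.19). Vwf goes up with the endocardial level except that mdx HRTΔIKKβ replicate 3 (9.45) lies below mdx IKKβf/f replicate 3 (9.61).

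Emcn encodes endomucin, a sialomucin of veins and capillaries, and Eng encodes endoglin, the coreceptor of BMP9. Emcn read 10.53, 10.55, 10.22 and 10.40 in mdx HRTΔIKKβ hearts, against 10.32, 10.25 and 10.52 in mdx IKKβf/f hearts (0.06 ± 0.10). Eng read 11.17, 11.10, 10.72 and 11.03 in mdx HRTΔIKKβ hearts, against 10.74, 10.72 and 11.08 in mdx IKKβf/f hearts (0.16 ± 0.13). Both overlapped, and in both mdx HRTΔIKKβ replicate 3 was the lowest mutant heart and mdx IKKβf/f replicate 3 the highest control. The second Eng probe set gave the same difference (0.16 ± 0.14). Around endoglin, 11 of 12 genes of the BMP9 pathway had a higher mean (median 0.14, and 0.06 without mdx IKKβf/f replicate 2 or 0.07 without mdx HRTΔIKKβ replicate 2), with 0 at an unadjusted p under 0.05. Acvrl1, the receptor of BMP9 in endothelium, differed by 0.16 ± 0.07, Tgfbr2, the type II receptor for TGF-β, by 0.31 ± 0.14 and Id1, a target gene, by 0.17 ± 0.09. The level of this pathway was lowest in mdx HRTΔIKKβ replicate 3 among the mutants (-0.15), as for Eng itself. It was highest of all in mdx HRTΔIKKβ replicate 4 (0.23) and lowest of all in mdx IKKβf/f replicate 2 (-0.18). The list includes Bmp10, which is also counted with the atrial markers, whose level was highest (1.03) and lowest (-1.68) in those same hearts. In mdx HRTΔIKKβ replicate 3, by contrast, the atrial level was 0.50 and that of this pathway -0.15. The part of atrial tissue in the level of this pathway was not tested.

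Meox2 was measured by 2 probe sets that ran together (r = 0.991 over 7 hearts). The brighter read 8.72, 8.87, 8.39 and 8.41 in mdx HRTΔIKKβ hearts, against 9.43, 8.87 and 9.33 in mdx IKKβf/f hearts, with a touch of overlap between both hearts at 8.87. The other read 8.14, 8.25, 7.78 and 7.92 in mdx HRTΔIKKβ hearts, against 8.80, 8.38 and 8.74 in mdx IKKβf/f hearts, and did not overlap. The differences were -0.61 ± 0.17 and -0.61 ± 0.14, about 0.655 and 0.654 of the control level. For the brighter one, leaving out mdx IKKβf/f replicate 1 gave -0.50, and leaving out replicate 2 of the same group gave -0.78. The spread within each genotype was wide, with an SD of 0.24 among mutants and 0.30 among controls.

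Skeletal muscle markers moved with Meox2. Of 10 such markers, 10 had a lower mean in mdx HRTΔIKKβ hearts (median -2.31), and their list level was -1.41, 0.18, -1.31 and -1.50 in mdx HRTΔIKKβ hearts, against 4.43, -1.25 and 0.86 in mdx IKKβf/f hearts. The median was -0.67 without mdx IKKβf/f replicate 1. The hearts highest for these markers within each genotype were highest for Meox2. In the hearts at the low end of the muscle markers (-1.50 to -1.25), Meox2 was 8.72, 8.39 and 8.41 in mdx HRTΔIKKβ replicates 1, 3 and 4, against 8.87 in mdx IKKβf/f replicate 2. Only 1 control heart lies there. Without both mdx IKKβf/f replicate 1 and mdx HRTΔIKKβ replicate 2 the difference was -0.59, and mdx IKKβf/f replicate 3, with a level of 0.86, then remained among the controls. The part of skeletal muscle RNA in the difference of Meox2 was not tested.

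The 5 genes listed with MEOX2 were its partner Tcf15, its relative Meox1, the described target Cdkn1a, and Cdkn2a and Zeb2, so not all are partners or targets. In the mutants 4 averaged higher and 1 lower (median 0.19, the difference of Meox1). This median was 0.03 without mdx HRTΔIKKβ replicate 1, 0.06 without mdx HRTΔIKKβ replicate 2, 0.09 without mdx IKKβf/f replicate 2, 0.31 without mdx HRTΔIKKβ replicate 3 and 0.04 with array weights. The lower one, Tcf15, the partner in cardiac endothelium, read 9.76, 9.76, 9.35 and 9.42 in mdx HRTΔIKKβ hearts, against 9.88, 9.99 and 9.88 in mdx IKKβf/f hearts, without overlap (-0.34 ± 0.12, limma unadjusted p = 0.0198, adjusted p = 0.796). Unlike Meox2, it was highest in mdx IKKβf/f replicate 2. Meox1, the relative of Meox2, read 9.49, 9.54, 8.38 and 8.65 in mdx HRTΔIKKβ hearts, on either side of the 8.82 found in each of the mdx IKKβf/f hearts (0.19 ± 0.29). Cdkn1a, encoding the cell cycle inhibitor p21, read 9.68, 11.06, 11.20 and 9.87 in mdx HRTΔIKKβ hearts, against 8.69, 9.55 and 8.42 in mdx IKKβf/f hearts. Every mutant heart was above every control, opposite in sign to Meox2 (1.56 ± 0.44, limma unadjusted p = 0.00859, adjusted p = 0.796). Cdkn2a, another inhibitor gene, differed by 0.02 ± 0.07 and the repressor gene Zeb2 by 0.25 ± 0.14.

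Fatty acid transport genes of capillaries, among them described targets of the MEOX2 and TCF15 pair, were close to level. Of 16 on the array 11 had a higher and 5 a lower mean, with a median of 0.02 (0.0003 without mdx HRTΔIKKβ replicate 1 and 0.09 without mdx HRTΔIKKβ replicate 4), and at an unadjusted p under 0.05 there were 1 higher and 1 lower. Fabp5, an intracellular fatty acid carrier, differed by 0.35 ± 0.12 and Cav2, a caveolae protein, by -0.14 ± 0.06. The best known genes of the list, picked here after their values were seen, were Cd36, the fatty acid receptor (0.02 ± 0.06), Fabp4 (0.02 ± 0.12), Lpl, the lipase of capillary lumens (-0.009 ± 0.05), and Gpihbp1, which carries it there (0.21 ± 0.12). Cardiomyocytes and adipocytes also use Cd36 and Lpl or Fabp4, so these do not report on endothelium alone. Adipocyte markers were highest in mdx HRTΔIKKβ replicate 2 (1.63), the heart with the highest Fabp4 (14.11).

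**Figure D3:**
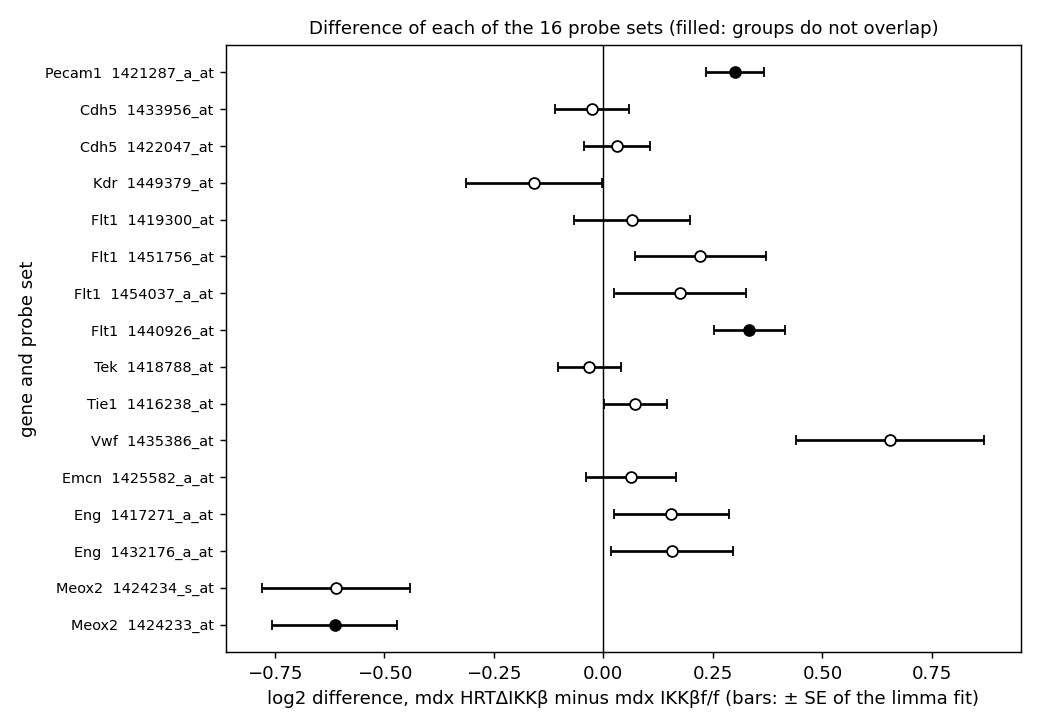
Each of the 16 probe sets (y axis) with its mean in mdx HRTΔIKKβ hearts minus that in mdx IKKβf/f hearts on the log2 scale (x axis), with bars of ± SE from limma and filled points where the groups do not overlap. Vwf (0.65) and Meox2 (-0.61 for both probe sets) lie farthest from 0, while Cdh5, Tek, Tie1 and Emcn lie within 0.08 of it.

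Genes of the endothelial and related lists set the frame for these values. Among the 10 genes, 6 averaged higher and 4 lower in mdx HRTΔIKKβ hearts, with a median difference of 0.06 against -0.01 over all 18193 genes, of which 47.7% were higher. Without both mdx HRTΔIKKβ replicate 2 and mdx IKKβf/f replicate 1, the hearts highest in lung and skeletal muscle markers, the median was -0.02, so its sign was not settled. The other pathway lists held 131 different genes, of which 81 had a higher and 50 a lower mean (median 0.04). They include the genes listed with MEOX2 and the fatty acid transport genes, so not all are particular to endothelium. At an unadjusted p under 0.05 there were 14 higher, Cdkn1a among them, and 7 lower, while 3.25% of all genes were higher and 2.95% lower at that threshold (6.2% together). None passed the adjusted threshold. Of 14 other pan-endothelial genes 8 were higher in mean and 6 lower (median 0.07, and -0.01 without mdx IKKβf/f replicate 2). Tmem100, a BMP target of vessels (0.65 ± 0.20), Adgrl4, an adhesion receptor of endothelium (0.27 ± 0.09), and S1pr1, the sphingosine phosphate receptor that tightens junctions (0.51 ± 0.21), had the smallest p-values in that list.

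Endothelial transcription factors were split, with 9 higher and 11 lower means (median -0.02, -0.12 with replicate 2 of mdx IKKβf/f left out and 0.03 with its replicate 3 left out). Lmo2, a cofactor of blood and vessel formation, read 9.80, 10.04, 9.79 and 9.96 in mdx HRTΔIKKβ hearts, all below the 10.32, 10.14 and 10.26 of mdx IKKβf/f hearts (-0.34 ± 0.08, limma unadjusted p = 0.00352, adjusted p = 0.79). Mef2c, which heart muscle uses as well, also had a lower mean without overlap (-0.29 ± 0.11). Nr2f2, the factor of venous identity, had a higher mean (0.21 ± 0.07). Genes of endothelial Notch signalling showed 3 higher and 7 lower means (median -0.07, -0.10 with replicate 1 of mdx IKKβf/f left out and -0.01 with its replicate 3 left out), led by the arterial ligand gene Efnb2 (-0.27 ± 0.08) and the tip cell ligand gene Dll4 (-0.30 ± 0.13). Vasoactive and activation genes showed 11 higher and 2 lower means (median 0.19, 0.10 with replicate 2 of mdx IKKβf/f left out and 0.30 with replicate 3 of mdx HRTΔIKKβ left out), where, after Plvap, Ece1, the enzyme that matures endothelin (0.22 ± 0.08), and Thbd, encoding thrombomodulin (0.32 ± 0.15), had the smallest p-values.

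Venous and capillary-venous markers had 3 higher and 2 lower means, and their median (0.10) and mean difference (-0.15) differed in sign. The lower ones were the apelin receptor gene Aplnr (-0.94 ± 0.38) and its ligand gene Apln (-0.23 ± 0.11). Lymphatic markers had 4 higher and 2 lower means among 6, led by Lyve1 (1.04 ± 0.14), which resident macrophages share, and Pdpn (0.74 ± 0.31), which mesothelium shares. Mesothelial markers had a higher mean in 6 of 6 (0.92 in the median), with levels from -0.20 to 1.08 in mdx HRTΔIKKβ hearts and from -0.56 to -0.54 in mdx IKKβf/f hearts. Pericyte and smooth muscle markers, the wall cells that lie on these vessels, had 2 higher and 8 lower means (median -0.22), and this median was 0.05 without mdx IKKβf/f replicate 3, whose level of 0.67 stood above the -0.23 to -0.02 of all other hearts.

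**Figure D4:**
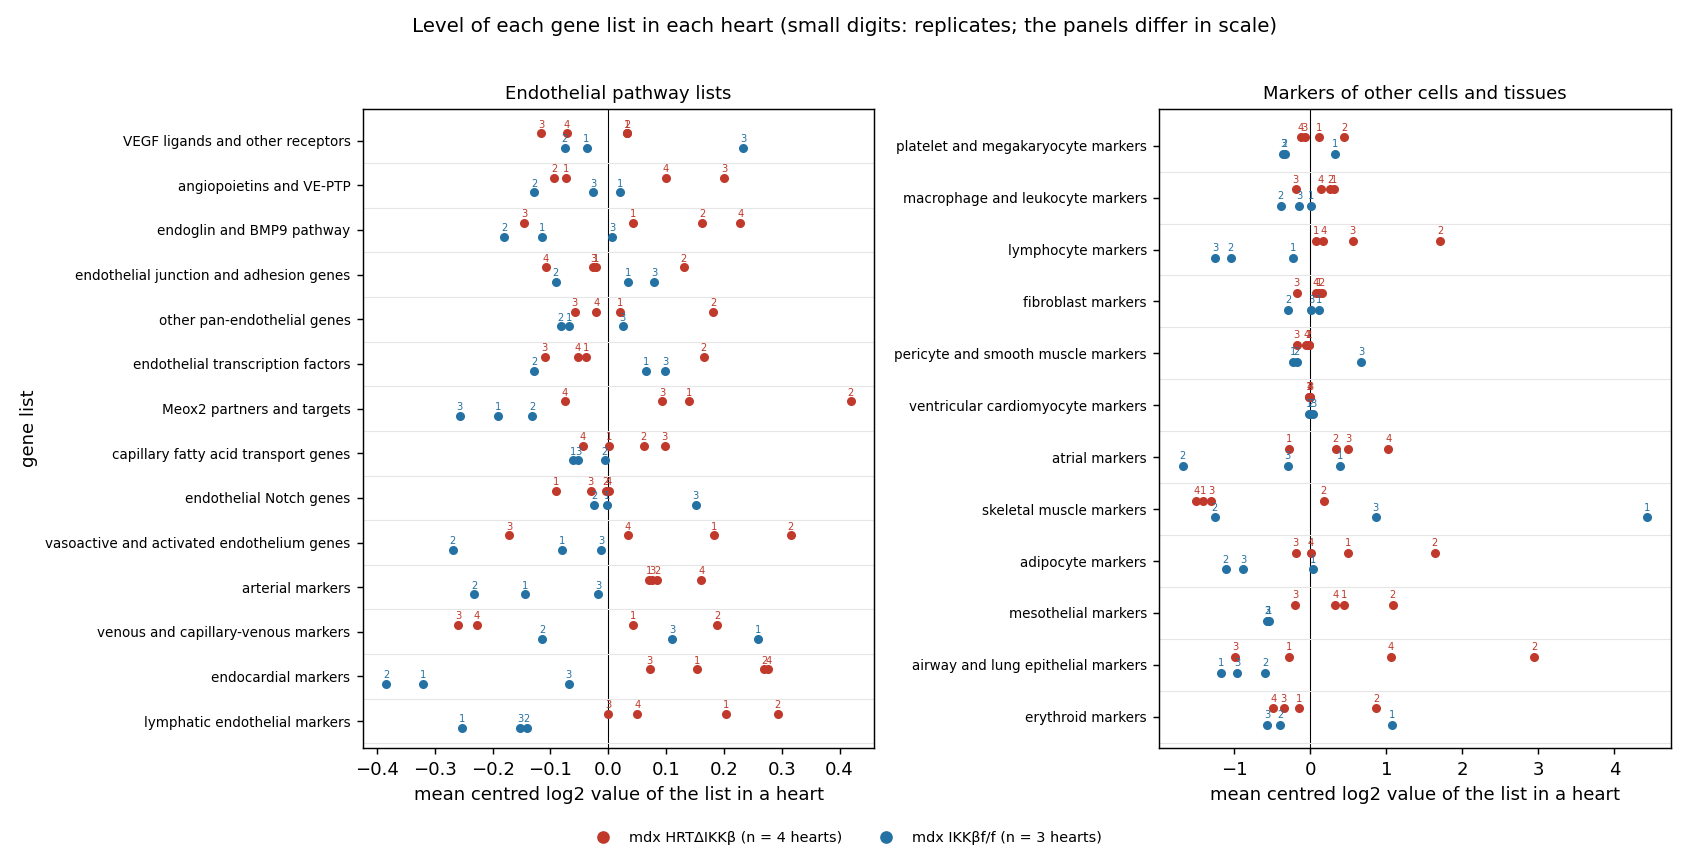
Level of each gene list (mean centred log2 value, x axes with different scales) in each mdx HRTΔIKKβ heart (red, upper row of a list) and mdx IKKβf/f heart (blue, lower row), for endothelial and related lists (left) and markers of other cells and tissues (right). Levels of 6 of the 26 lists do not overlap, all higher in mdx HRTΔIKKβ (endocardial, arterial, lymphatic, mesothelial, lymphocyte, and the genes listed with MEOX2, labelled partners and targets). Among the genes listed with MEOX2 the widest difference is that of Cdkn1a (1.56). Of single genes by their brightest probe set, 5.67% do not overlap, counting both directions. The lists share genes and were chosen with earlier results of these data known, so nothing is read from the count. Skeletal muscle markers reach 4.43 in mdx IKKβf/f replicate 1.

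Variation among hearts of 1 genotype was examined after taking out the group means, over 7 hearts in which markers of other tissues also vary, so these correlations are descriptive. Endothelial genes other than Flt1 tended to vary together, with a positive r in 27 of 28 pairs and a median of 0.649 (lowest -0.256 for Cdh5 and Vwf). Flt1 was set aside for its correlations in these same values, which in part fixes the counts without it, so nothing is read from them. Emcn and Eng were closest (0.968), followed by Kdr and Tie1 (0.946). Flt1 stood apart, with a positive r to only 2 of the 9 others and a median of -0.322. Meox2 varied with the endothelial genes inside the groups, positively with 8 of 8 apart from Flt1 (median 0.678), and at -0.73 with Flt1. Pecam1 and Meox2, which lay on opposite sides between genotypes (r = -0.511 over all hearts), had an r of 0.896 within them. In mdx HRTΔIKKβ hearts both were highest in replicate 2 and lowest in replicate 3, and in mdx IKKβf/f hearts both were lowest in replicate 2.

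**Figure D5:**
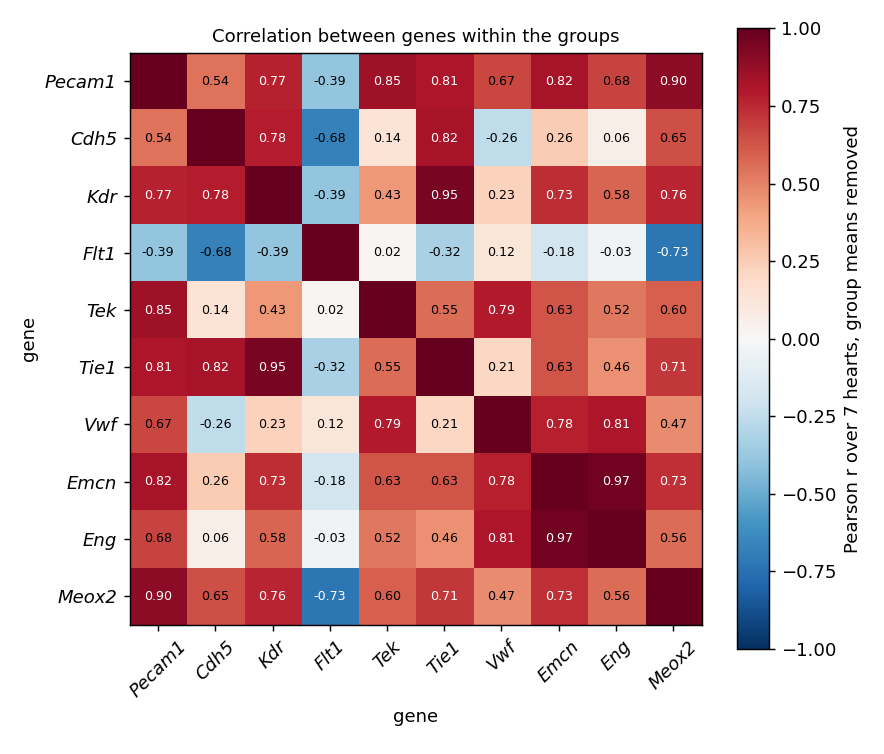
Pearson r between the brightest probe sets of the 10 genes (both axes) over 7 hearts after removal of each group's mean, with colour from blue (-1) to red (1). The row of Flt1 is mostly blue and reaches -0.73 with Meox2, whereas Emcn and Eng reach 0.97.

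Finally, the genes whose values over the 7 hearts were most like those of Pecam1 and of Meox2 were listed among 10752 genes with a mean of at least 7. Since these correlations include the group difference and the rule fixed only their number, they describe likeness alone. For Pecam1 the 5 were Tmed3 (r = 0.988), Plvap (0.988), Tbrg1 (0.982), Sdc1, a cell surface proteoglycan (0.977), and Ugdh, an enzyme of glycosaminoglycan synthesis (0.976), with differences of 0.26, 0.90, 0.20, 0.54 and 0.51. Tmed3, Plvap and Ugdh each ranked the hearts in the same order as Pecam1 did (Spearman's rho = 1). For Meox2 they were Tspan13 (r = 0.971), the transcription factor gene Sox4 (0.969), Cd276 (0.967), Aplnr (0.965) and Arf5 (0.962). Aplnr read 10.10, 10.26, 9.19 and 9.01 in mdx HRTΔIKKβ hearts, against 10.93, 9.92 and 10.89 in mdx IKKβf/f hearts, so that it overlapped between groups as the brighter Meox2 probe set did, and within groups the r was 0.967.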

How the data were processed

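Total RNA of 7 whole mdx hearts was biotin-labelled and hybridized to Affymetrix Mouse430_2 arrays. The authors deposited log2 values made by RMA, with background correction and quantile normalization. The methods name Partek for it and, independently, Affymetrix Expression Console; versions, and which program made the table, are not given in the sources used here. RMA compresses differences where signal is dim, and the quantile step takes out global shifts. No sequencing depth applies, and the number of arrays limits the precision.

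Genes were named from the platform annotation, which can be old. Of 45037 probe sets, 34945 had 1 symbol, 932 several and 9160 none, and only the first kind was named. A RefSeq table (GRCm38.p6) changed 0 symbols. A gene is represented by its brightest probe set (highest mean over 7 arrays). limma 3.58.1 (lmFit, eBayes, two-sided, R 4.3.3) was fitted to all probe sets without a filter, with Benjamini-Hochberg adjustment. No label pairs the hearts, and the study calls its samples biological replicates. The procedure was tested on simulated data of this comparison (45037 probe sets, 50 changed per fold size). There, 64% were recovered at 1.5-fold, 80% at 2-fold, 94% at 4-fold and 98% at 8-fold, with 10 false calls. The simulated noise was normal and independent between probe sets, without the tissue differences that many genes of a heart share. These shares therefore check the fit and do not give its power in the real hearts.

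The 10 genes and the 26 other lists (231 genes outside the 10, written from textbook knowledge) were chosen with earlier results of these data known. Named are Ikbkb, all probe sets of the 10 genes, a preset set of ligands, receptors and partners, up to 3 genes of each list with the smallest unadjusted p, and the 5 genes most like Pecam1 and Meox2; Cd36, Fabp4, Lpl, Gpihbp1, Rgcc, Aqp1 and Igk were named after their values were seen. Alternatives were median centring, a further quantile normalization, removal of dim (mean under 5) or cross-hybridizing (_x_at, _s_at) probe sets, a replicate block and array weights. Further ones were a trended and robust variance, the mean of a gene's probe sets, a Student's t-test and hearts left out.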

Additional observations from a re-analysis of the deposited data

Results flagged for a closer look

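In groups of 4 hearts, the 16 probe sets and the lists were checked for a heart standing apart from the others (Dixon's ratio of gap to range at its critical value for 95%); chance marks about 1 in 20 such groups. Among mdx HRTΔIKKβ hearts this was met by the skeletal muscle marker level (ratio 0.884), where replicate 2 stood at 0.18 and the others between -1.50 and -1.31. It was also met by the arterial marker level (ratio 0.841), where replicate 4 stood at 0.16 and the others between 0.07 and 0.08. No probe set of the 10 genes met it. The 3 control hearts were too few for this check.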

How the results depend on the processing

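No probe set of the 10 genes passed the adjusted threshold under any alternative run. The count of adjusted calls over all probe sets was 0 in limma as reported and ran from 0 to 1 with single hearts left out, the 1 being a probe set of Igk without mdx HRTΔIKKβ replicate 1. Probe sets at least 1.5-fold higher numbered 356 and ran from 272 to 478, the ends coming without mdx HRTΔIKKβ replicate 2 and with mdx IKKβf/f replicate 1 left out. Those at least 1.5-fold lower numbered 109 and ran from 74 to 191, where mdx IKKβf/f replicates 1 and 2 were the hearts left out. The median difference of the 10 genes ran from 0.019 to 0.097 with single hearts left out. It was -0.022 without both mdx HRTΔIKKβ replicate 2 and mdx IKKβf/f replicate 1, an alternative chosen after seeing the data. The medians of the VEGF, junction, pan-endothelial, transcription factor, venous, fibroblast, pericyte, ventricular and erythroid lists changed sign with at least 1 single heart left out. The cause of these shifts was not tested. Pecam1, Vwf, Eng, Tie1, Kdr and Meox2 kept their sign under every alternative, and Cdh5, Flt1, Tek and Emcn, all within 0.07 of 0, did not. With the replicate number as a block, 0 probe sets passed and 2192 had an unadjusted p under 0.05, Pecam1 differed by 0.31 and Meox2 by -0.55. The numbers do not pair the hearts: deviations of same-numbered hearts correlated at -0.08, -0.38 and -0.04.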

Other observations

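The mdx HRTΔIKKβ hearts differed among themselves in several capillary genes, which were picked after their values were seen and are given as values. Rgcc, a cell cycle regulator rich in capillary endothelium, read 10.74, 10.72, 11.93 and 11.66 in mdx HRTΔIKKβ hearts, against 11.05, 11.68 and 10.81 in mdx IKKβf/f hearts. The water channel gene Aqp1 read 11.20, 11.53, 12.21 and 12.35 in mdx HRTΔIKKβ hearts, against 11.89, 11.92 and 11.83 in mdx IKKβf/f hearts. The sphingosine phosphate receptor gene S1pr1 read 9.36, 9.45, 10.16 and 10.05 in mdx HRTΔIKKβ hearts, against 9.25, 9.40 and 9.08 in mdx IKKβf/f hearts. In each of these, replicates 3 and 4 were the high mutant hearts, whereas the same hearts were low for Kdr, Aplnr and Meox1. No label separates these hearts, and no test was made of the pattern.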
